A study of Mus musculus with 24 samples.

Results

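A set of 10 genes of receptor tyrosine kinase signalling were followed across the developing archicortex (ARK) of Sox9 mutant embryos: the docking protein gene Gab1, the ubiquitin ligase genes Cbl and Cblb, the adaptor gene Grb2, and the growth factor receptor genes Egfr, Erbb2, Erbb4, Met, Pdgfra and Igf1r. They are drawn from the 51912 genes in the deposited table. Gab1 and Cbl were chosen by their lower level in E13.5 Sox9fl/fl;Sox1Cre mutants, where the study lists them, and the other 8 because their products work with GAB1 or CBL. All 10 passed the filter on low values.

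The table holds bulk RNA-seq of dissected archicortex from mouse embryos of mixed C57BL/6J;MF1 strain, in 6 groups of 4 libraries. Sox9fl/fl;Sox1Cre mutants and Sox9+/+;Sox1Cre controls were collected at E12.5 and at E13.5, and Sox9fl/fl;NestinCre mutants and Sox9+/+;NestinCre controls at E13.5. The controls carry the same Cre as their mutants but no floxed Sox9 allele, so each comparison is of Sox9 genotype within 1 Cre line. Other differences between mutants and controls are not held equal by this, and sex, read from Xist below, was uneven. The study's methods describe the dissection at E13.5, and how the E12.5 tissue was dissected is not given in the sources used here, so that age and any difference in dissection cannot be told apart. In the study's account, Sox1Cre acts early and deletes Sox9 across the whole archicortex. The NestinCre transgene acts with a delay: by E13.5 it covers the dentate neuroepithelium, while the cortical hem is largely spared. NestinCre embryos thus retain Sox9 in part of the tissue. Libraries are named A1 to A24, as in the titles. They held 16163560 to 49445219 reads on genes, with a median of 23016925. The labels do not say whether each library came from 1 embryo, so p-values measure the spread between these libraries, which may be partly technical. In bulk tissue, fewer cells of a type and less RNA per cell cannot be told apart.

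Growth factors such as epidermal growth factor, neuregulin, hepatocyte growth factor, platelet-derived growth factor and insulin-like growth factor bind receptor tyrosine kinases, which phosphorylate themselves and recruit cytoplasmic partners. GRB2 is the adaptor that links phosphorylated receptors to the RAS activator SOS and brings GAB1 to the membrane. GAB1 then serves as a platform for the phosphatase SHP2 and for PI3 kinase. CBL and its homologue CBLB are E3 ubiquitin ligases that attach ubiquitin to activated receptors, which are then internalised and degraded. In the embryonic forebrain, EGFR and ERBB4 are known for roles in progenitors and in migrating neurons, and PDGFRA marks meningeal fibroblasts and, later, oligodendrocyte precursors.

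The promoters of Gab1, Cbl and Cblb, the genes on which most of the results below turn, are shown first, as the sequence from which those transcripts start. Each runs 5′ to 3′ on the gene's own strand over 300 bases of RefSeq's GRCm38.p6 annotation, 250 before the annotated start and 50 after it. Gab1 has 2 such starts, of which the first listed is given, at chr8:80880470-80880769 on the minus strand. Cbl is at chr9:44233997-44234296 on the minus strand and Cblb at chr16:52031299-52031598 on the plus strand. Capitals mark matches to the SOX core ACAAT or to the GC box GGGCGG, on either strand.
Gab1: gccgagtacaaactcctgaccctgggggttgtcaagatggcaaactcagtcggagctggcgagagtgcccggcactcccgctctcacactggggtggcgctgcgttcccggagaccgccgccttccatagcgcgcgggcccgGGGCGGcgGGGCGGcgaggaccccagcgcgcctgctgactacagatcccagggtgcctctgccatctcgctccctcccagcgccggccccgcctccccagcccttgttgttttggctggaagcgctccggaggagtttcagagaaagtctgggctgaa
Cbl: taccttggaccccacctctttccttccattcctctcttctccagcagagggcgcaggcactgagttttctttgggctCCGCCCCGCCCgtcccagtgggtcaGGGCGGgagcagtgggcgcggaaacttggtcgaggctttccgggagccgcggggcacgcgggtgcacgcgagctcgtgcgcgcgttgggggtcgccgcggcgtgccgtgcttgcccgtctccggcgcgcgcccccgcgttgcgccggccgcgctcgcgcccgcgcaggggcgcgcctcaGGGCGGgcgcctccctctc
Cblb: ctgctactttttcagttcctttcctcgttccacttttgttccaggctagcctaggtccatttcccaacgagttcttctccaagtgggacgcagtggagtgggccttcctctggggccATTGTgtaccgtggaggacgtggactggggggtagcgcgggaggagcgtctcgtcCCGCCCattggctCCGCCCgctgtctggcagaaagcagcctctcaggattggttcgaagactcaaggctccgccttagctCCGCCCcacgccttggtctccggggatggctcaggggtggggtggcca
The letters ACAAT were found in 31% of the 32851 promoters of this length, GGGCGG in 35.7%, and a second SOX-type core, ACAAAG, in 18.7%. All 3 printed promoters hold the GC box, with 2 matches in Gab1, 4 in Cbl and 3 in Cblb. ACAAT occurs once in Cblb, 133 bases before the start, and neither ACAAT nor ACAAAG is in the printed windows of Gab1 and Cbl. Across the first promoters of the 10 genes, ACAAT was found in 3, ACAAAG in 1 and GGGCGG in 6. G and C make up 68% of the Gab1 window, 74% of the Cbl window and 61.3% of the Cblb window, against a median of 52.7% over all promoters. A match is a string of letters and not a bound site.

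Sox9, the deleted gene, was read first as a check of the labels. In E12.5 Sox9fl/fl;Sox1Cre mutants it stood at 2260 ± 508 (SD, n = 4) normalised counts against 4522 ± 503 (SD, n = 4) in their controls, in E13.5 Sox1Cre mutants at 3363 ± 376 against 5578 ± 306, and in NestinCre mutants at 3134 ± 162 against 5152 ± 465. All 4 mutant libraries lay below all 4 control libraries in each comparison. Its log2 change was -1.02 at E12.5 and -0.71 in NestinCre mutants (adjusted p = 6.28e-05 and 0.0297, limma over 16454 genes). Sox9 reads remained in every mutant library. The study describes a floxed allele that loses its later exons on recombination and keeps the first, so reads counted over the whole gene do not measure the extent of deletion.

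Gab1 and Cbl were lower in E12.5 Sox9fl/fl;Sox1Cre mutants than in their controls, in libraries outside the comparison that they were chosen by. Gab1 fell by 22.4% and Cbl by 33.4%. The other 8 genes did not pass the test in this comparison, in which 0.723% of all genes tested did, a share that gives few calls or none among 8 genes. Both Gab1 and Cbl also had lower means in NestinCre mutants, but neither passed the test there, where 0.0669% of all genes did. Over the mean of the 2 changes both did, beside 1% of all genes.

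Gab1 (ENSMUSG00000031714; GRCm38, chromosome 8, 80764438 to 80880519, minus strand) encodes the docking protein. At E12.5 it stood at 2411, 2146, 2582 and 2113 normalised counts in mutants A9 to A12, and at 3058, 2737, 3128 and 2969 in controls A13 to A16. The highest mutant library was below the lowest control library. The log2 change was -0.37 (SE 0.0817, adjusted p = 0.0382), and the exact two-sided permutation test of the 8 libraries gave p = 0.0286, the smallest it can give. Of the genes tested, 5.93% had all 4 mutants below all 4 controls in this comparison, and 0.723% passed the adjusted threshold in either direction.

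In the NestinCre line, Gab1 stood at 2816, 2298, 2700 and 3095 in mutants A17 to A20 and at 3458, 3044, 2878 and 3360 in controls A21 to A24. Mutant A20 was above controls A22 and A23, so the groups overlapped. The log2 change was -0.23 with a 95% interval from -0.40 to -0.06 (unadjusted p = 0.0109, adjusted p = 0.563 by limma; exact permutation p = 0.0857). This comparison made few calls of any kind, 0.0669% of the genes tested. Mutant A18, the lowest for Gab1, also carried ventral telencephalon transcripts: the 9 genes of that marker list summed to 697 there against 23.1 to 117 in the other 23 libraries, with Dlx2 at 220. Without A18 the change was -0.15.

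In E13.5 Sox1Cre mutants, the comparison by which Gab1 and Cbl were chosen, Gab1 stood at 2463, 2670, 2513 and 2693 (A1 to A4) and at 3196, 3693, 3517 and 3278 in controls A5 to A8. These values are given as a description, as are those of Cbl in the same libraries.

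Cbl (ENSMUSG00000034342; chromosome 9, 44142976 to 44234049, minus strand) encodes the ubiquitin ligase. In E12.5 mutants A9 to A12 it stood at 3955, 5070, 4219 and 2457, and in controls A13 to A16 at 5717, 5819, 5684 and 5579. The controls lay within a narrow band, the mutants were more widely spread, and every mutant was below every control. The log2 change was -0.59 (SE 0.133, adjusted p = 0.0406), with an exact permutation p of 0.0286. Without A12, the lowest library, the change was -0.38 (adjusted p = 0.0335). A12 was also the highest of the 24 libraries for the summed radial glia markers (70386) and the lowest for the summed neuronal markers (11924); their part in the Cbl value was not tested.

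In NestinCre mutants A17 to A20, Cbl stood at 2571, 2704, 3087 and 2520, and in controls A21 to A24 at 3522, 3341, 3608 and 3635. All 4 mutants were below all 4 controls, as for 2.8% of the genes tested. The log2 change was -0.38 with a 95% interval from -0.65 to -0.10 (unadjusted p = 0.00954, adjusted p = 0.553 by limma; exact permutation p = 0.0286). In E13.5 Sox1Cre mutants A1 to A4 the values were 3863, 3531, 3412 and 3194, against 5828, 5705, 5135 and 5275 in controls A5 to A8.

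**Figure D1:**
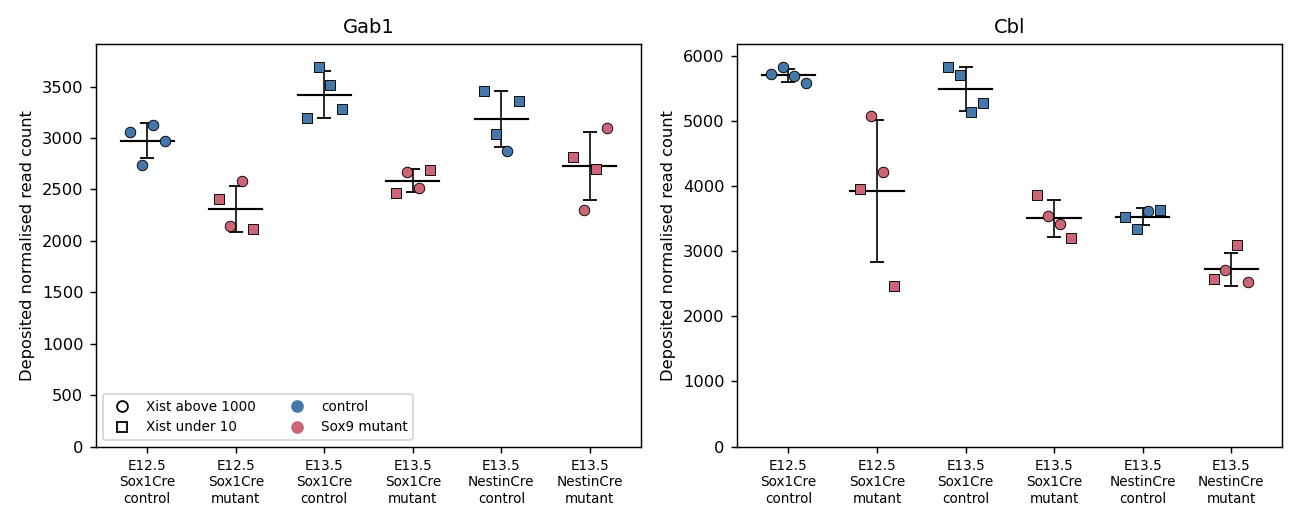
Deposited normalised read counts of Gab1 (left) and Cbl (right) in each library, by group; horizontal lines are group means and whiskers 1 SD (n = 4), and point shape gives the Xist class of the library. Mutants lie below their controls in each pair of groups except that Gab1 overlaps in the NestinCre line, and the Cbl level of NestinCre controls is near that of E13.5 Sox1Cre mutants. Both genes were chosen by the E13.5 Sox1Cre libraries.

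Averaged over the 2 comparisons outside the one used for the choice, E12.5 Sox1Cre and E13.5 NestinCre, Gab1 fell by 18.6% (log2 change -0.30, SE 0.0578, adjusted p = 0.0123) and Cbl by 28.4% (log2 change -0.48, SE 0.0937, adjusted p = 0.0123, limma). In this mean 165 genes passed, 1% of those tested, 40 higher and 125 lower. The NestinCre change minus the E12.5 Sox1Cre change was 0.14 for Gab1 (95% interval -0.10 to 0.38, adjusted p = 0.849) and 0.21 for Cbl (-0.18 to 0.60, adjusted p = 0.858). A difference between the comparisons was thus not detected, at intervals that still allow one as large as the changes themselves. In all, 0.0182% of genes passed that test of the difference.

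The margin of the E12.5 calls was small. The adjusted p of Gab1 ranged from 0.00403 to 0.0756 over the other settings and reached 0.141 when 1 library was left out, and that of Cbl ranged from 0.00628 to 0.17 and reached 0.108. Averaged over both comparisons, both genes passed in all 10 other settings and in each of the 17 fits that left out 1 library.

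Xist, the X-inactivation transcript, split the libraries into those above 1000 and those under 10, and the classes were unevenly spread. All 4 E12.5 controls had Xist above 1000, as did E12.5 mutants A10 and A11, while mutants A9 and A12 were under 10. Among the E12.5 libraries with Xist above 1000, Gab1 was 2146 and 2582 in mutants against 2737 to 3128 in controls, and Cbl was 4219 and 5070 against 5579 to 5819. In NestinCre libraries with Xist under 10, Gab1 was 2700 and 2816 in mutants against 3044 to 3458 in controls, and Cbl 2571 and 3087 against 3341 to 3635. Both genes stood lower in mutants within each of these classes. In the NestinCre libraries with Xist above 1000, of which 1 is a control, Cbl was 2520 and 2704 in mutants against 3608, while Gab1 was 2298 and 3095 against 2878 and so overlapped. With Xist as a covariate in limma, the E12.5 change was -0.38 for Gab1 (adjusted p = 0.0509) and -0.525 for Cbl (adjusted p = 0.0991).

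Markers of other cell types gave no call in these comparisons, in which few genes of any kind passed (0.723% at E12.5, 0.0669% in the NestinCre line and 1% in their mean): of 64 tested genes from 11 lists (archicortex and hem, radial glia, neurons, ventral telencephalon, oligodendrocyte precursors, meninges, endothelium, pericytes, microglia, choroid plexus and erythroid cells), 0 passed at E12.5, 0 in the NestinCre line and 0 in their mean by limma. At E12.5 the archicortex gene Lhx2 had a mean of 11013 in mutants and 14932 in controls (log2 change -0.48, adjusted p = 0.211), the oligodendrocyte lineage gene Olig2 one of 48.3 against 9.96 (3.09, adjusted p = 0.228), the pericyte gene Rgs5 one of 555 against 320 (0.68, adjusted p = 0.289), and the globin gene Hba-a1 a log2 change of -0.51 (adjusted p = 0.322). Each of these was the only gene of its list at an unadjusted p under 0.05. The interneuron gene Gad2 was under that p among NestinCre libraries, at 5.92 to 100.5 in mutants and 0.923 to 4.42 in controls (log2 change 2.65, adjusted p = 0.602), with all 4 mutants above all 4 controls. In the mean of both comparisons Lhx2 (-0.28), Gad2 (1.74), Olig2 (2.21), Olig1 (1.61) and the fibroblast gene Dcn (-0.28) were under it, with adjusted p-values between 0.217 and 0.31, and the part of these genes in the Gab1 and Cbl values was not tested. NestinCre mutant A18 held Olig2 at 142.5, against 2.96 to 10.1 in the other mutants of its group and 0.923 to 15.9 in their controls. At E12.5 the Olig2 groups overlapped, with control A14 at 33.9 and mutant A11 at 28.3. In E13.5 Sox1Cre mutants 1 marker passed, the radial glia gene Vim (log2 change -0.26, adjusted p = 0.0289), which the study also lists from these libraries. Archicortex markers were present throughout, with Lhx2 and the hem genes Wnt3a, Wnt8b and Lmx1a all detected. Lhx2 had the highest normalised count of its list over all libraries together, not divided by length. In E12.5 mutants the mean of Wnt8b (12774) was above that of Lhx2 (11013).

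The Cbl level also differed between the control groups. All 4 NestinCre controls were below all 8 Sox1Cre controls of both ages, as for 251 genes, or 1.53% of those tested, and their mean was 0.643 times that of the E13.5 Sox1Cre controls. For Gab1 the same ratio was 0.931. The E13.5 Sox1Cre controls are among the libraries by which Gab1 and Cbl were chosen, so the choice bears on that share and on both ratios. Outside the choice, Cbl stood at 3341 to 3635 in NestinCre controls and at 5579 to 5819 in E12.5 Sox1Cre controls, which also differ in age. These values are a description of groups that differ in Cre line, and the line and anything else that differs between those libraries cannot be told apart.

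A pair of genes that lie near Cbl were nearest to it in pattern. Over the 24 libraries and 11830 genes with a mean of at least 100, the highest Pearson correlations with Cbl on the log2 scale were those of Hinfp (0.899; chromosome 9, 44292440 to 44305671), which encodes a histone gene transcription factor, and Rnf26 (0.891; chromosome 9, 44095631 to 44113517), which encodes a ring finger protein, followed by Gm49338 (0.839), also on chromosome 9, Acp1 (0.823) and Cacul1 (0.812). Among E12.5 mutants, A10 was the highest and A12 the lowest for Cbl, for Hinfp (1015 and 714) and for Rnf26 (3243 and 1900) alike. NestinCre controls were lower than E13.5 Sox1Cre controls for Hinfp and Rnf26 too, at 0.833 and 0.759 times their level. These correlations share libraries and group differences and carry no p.

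The genes within 1 Mb of the Cbl start were then read as a set, which was chosen after these values had been seen. Of the 47 tested neighbours, Gm10686 and Nlrx1 fell and Ift46 rose at E12.5, where 0.723% of all genes passed. In the mean of both comparisons, where 1% passed, 3 of the 47 were lower and 1 higher. Of the 62 tested neighbours of Grb2, which had no call itself, 1 was lower and 3 higher at E12.5. Grb2 lies 2.86 Mb from Sox9, so its neighbours share a chromosome region with the floxed gene and are not a neutral set. Gm10686, a gene model without a name of its own 21 kb from the Cbl start, stood at 11.3 ± 4.04 in mutants and 47.2 ± 15.8 in controls at E12.5 (SD, n = 4; log2 change -1.97, SE 0.39, adjusted p = 0.0154), and at 3.68 ± 1.39 against 20.3 ± 9.11 in the NestinCre line (log2 change -2.14, SE 0.39, adjusted p = 0.0394). Nlrx1, which encodes a mitochondrial NOD-like receptor, stood at 154 ± 21.1 against 262 ± 50.4 at E12.5 (log2 change -0.75, SE 0.177, adjusted p = 0.0499). Gm10686 lies inside Nlrx1 on the other strand, and the sources used here do not state whether the counting used strand, so their reads may not be separable. Rnf26 had a change of -0.33 at E12.5 (adjusted p = 0.179) and Hinfp one of -0.24 (adjusted p = 0.161). The median change of the 47 neighbours was -0.02 at E12.5 and -0.02 in the NestinCre line, against 0.00 for all genes tested in both.

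**Figure D2:**
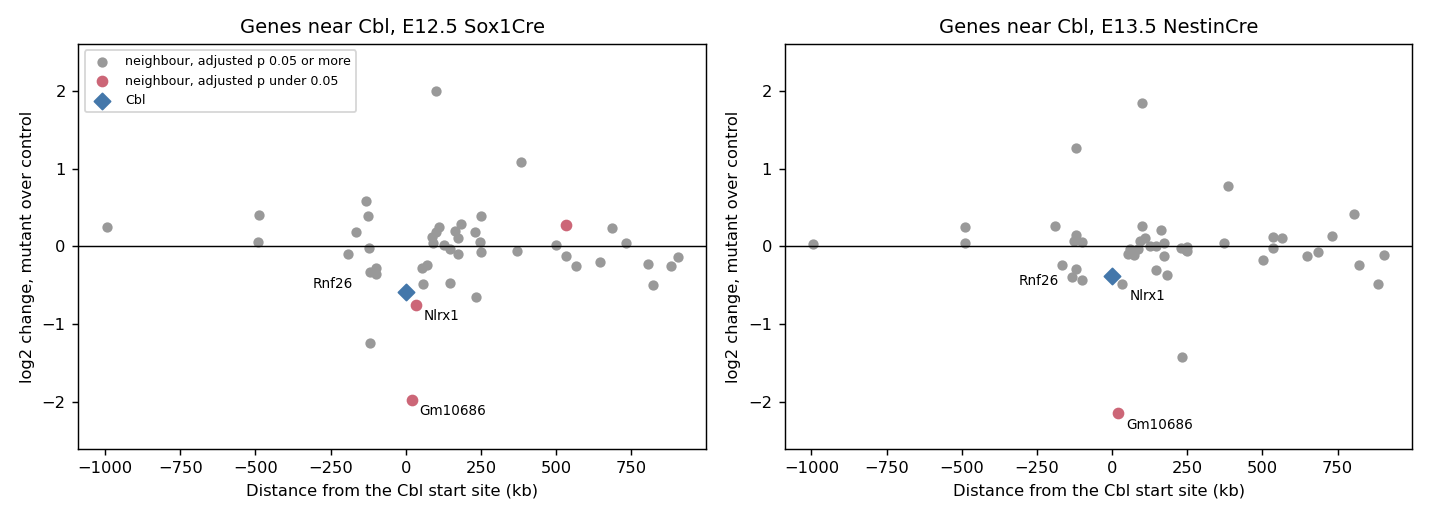
Log2 change of each tested gene within 1 Mb of the Cbl start, by distance from that start in kb, at E12.5 in the Sox1Cre line (left) and at E13.5 in the NestinCre line (right); the diamond is Cbl. Gm10686 is the lowest point in both plots, and most neighbours lie near 0.

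Gab1 had a different set of nearest genes, of which the first, Slc27a1, also shares its chromosome (chromosome 8, 71568882 to 71587302). The 5 highest correlations were Slc27a1 (0.922), which encodes a fatty acid transporter, Mfsd2a (0.900), a lysophospholipid transporter gene, Abcb9 (0.894), Vcam1 (0.890), which encodes an adhesion molecule of neural progenitors and vessels, and Sox9 itself (0.881). For Cbl, Sox9 ranked 518th by this measure, at 0.455. The 24 libraries include those by which Gab1 and Cbl were chosen for being lower in Sox9 mutants, so the choice bears on both values. Gab1 and Cbl correlated with one another at 0.401. Once each group's mean was subtracted, their correlation was 0.049 and that of Gab1 with Sox9 was 0.449, at rank 1019, with only Vcam1 still among the 5 genes nearest to Gab1. The genes nearest to Gab1 after centring included Slc7a1 (0.845), Nfic (0.828) and Cttnbp2 (0.803), and those nearest to Cbl were Tshz1 (0.867), Rbsn (0.837), Tprkb (0.817), Zbtb25 (0.801) and Dab1 (0.760), so that none of its 5 nearest genes was shared between the measures. Of the 5 tested neighbours of Gab1 within 1 Mb, Smarca5, a chromatin remodelling gene, passed in the mean of the 2 comparisons (log2 change -0.13, SE 0.0315, adjusted p = 0.0388), and none passed in either alone.

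Cblb (ENSMUSG00000022637; chromosome 16, 52031225 to 52208048, plus strand), the homologue of Cbl, gave no call between mutants and controls. Whether its change differed from that of Cbl was not tested. At E12.5 it stood at 3679, 4634, 3444 and 4541 in mutants A9 to A12 and at 4042, 3834, 4733 and 4572 in controls A13 to A16 (log2 change -0.08, 95% interval -0.35 to 0.18). In the NestinCre line it stood at 2069, 2774, 2623 and 2276 in mutants and at 2120, 2815, 2336 and 2388 in controls (log2 change 0.01, 95% interval -0.25 to 0.27). The groups overlapped in both.

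Cblb differed between the ages. All 16 E13.5 libraries, of both Cre lines and both genotypes, lay between 1838 and 3085, and all 8 E12.5 libraries between 3444 and 4733. Of the genes tested, 1.2% had every E13.5 library below every E12.5 library. Between Sox1Cre controls, which the age comparison rests on, Cblb was 2427 ± 441 at E13.5 and 4295 ± 426 at E12.5 (SD, n = 4; log2 change -0.83, SE 0.126, adjusted p = 0.00186, limma). This comparison shares its controls with the genotype comparisons, and 11.5% of genes passed it. Its 4 E12.5 controls had Xist above 1000 and its 4 E13.5 controls had Xist under 10, so age and sex cannot be told apart in it, and with Xist as a covariate the change was -0.74 (adjusted p = 0.0897). Sox1Cre mutants hold both classes at both ages. Those with Xist above 1000 had 2228 and 2384 at E13.5 against 3444 and 4634 at E12.5, and those with Xist under 10 had 1838 and 2161 against 3679 and 4541. The E13.5 NestinCre mutants had 2774 and 2276 with Xist above 1000 (A18 and A20) and 2069 and 2623 with Xist under 10 (A17 and A19).

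Grb2 (ENSMUSG00000059923; chromosome 11, 115644045 to 115708597), the adaptor gene that lies 2.86 Mb from Sox9, gave no call between mutants and controls. Over the 24 libraries it ranged from 2318 to 2813. The log2 change was -0.01 at E12.5 (95% interval -0.12 to 0.10) and 0.03 in the NestinCre line (-0.07 to 0.14), and the groups overlapped in both.

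The ERBB receptor genes gave no call between mutants and controls. Erbb2, whose product is the shared partner of the family, stood at 1170 ± 29.4 in E12.5 mutants and 1166 ± 25.1 in controls, and at 1216 ± 36.1 and 1189 ± 65.1 in the NestinCre line (SD, n = 4), with 95% intervals of the log2 change from -0.10 to 0.11 and from -0.07 to 0.13. Between Sox1Cre controls it was lower at E13.5, at 1052 ± 61.1, than at E12.5 (log2 change -0.15, SE 0.0484, adjusted p = 0.0489), while the NestinCre libraries of the same age had values between 1095 and 1260. That call was lost in 4 of 10 other settings and in 6 of the 8 fits without 1 library.

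Egfr, the epidermal growth factor receptor gene, was low and variable. It stood at 373, 465, 421 and 382 in E12.5 mutants and at 401, 384, 642 and 352 in their controls, and at 357, 402, 200 and 251 in NestinCre mutants against 284, 377, 283 and 242. Neither pair of groups separated, and the 95% intervals of the log2 change ran from -0.63 to 0.47 and from -0.56 to 0.55. Between Sox1Cre controls the change with age was -0.69 (adjusted p = 0.0963); it was -0.35 with the Xist covariate (adjusted p = 0.637), and it passed with library weights (-0.78, adjusted p = 0.0226) and without control A5 (-0.89, adjusted p = 0.0291).

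Erbb4, a neuregulin receptor gene, had the largest positive changes of the 10 genes in both comparisons, and neither passed. At E12.5 it stood at 840, 876, 1378 and 1210 in mutants and at 760, 661, 835 and 899 in controls (log2 change 0.43, 95% interval -0.18 to 1.03, adjusted p = 0.551). In the NestinCre line it stood at 696, 723, 958 and 721 in mutants and at 357, 859, 518 and 811 in controls (log2 change 0.36, 95% interval -0.25 to 0.96, adjusted p = 0.966), and without control A21, the lowest library, the change was 0.11. In E13.5 Sox1Cre libraries it was 246, 723, 545 and 322 in mutants against 581, 448, 777 and 687 in controls, so the sign there was the opposite.

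**Figure D3:**
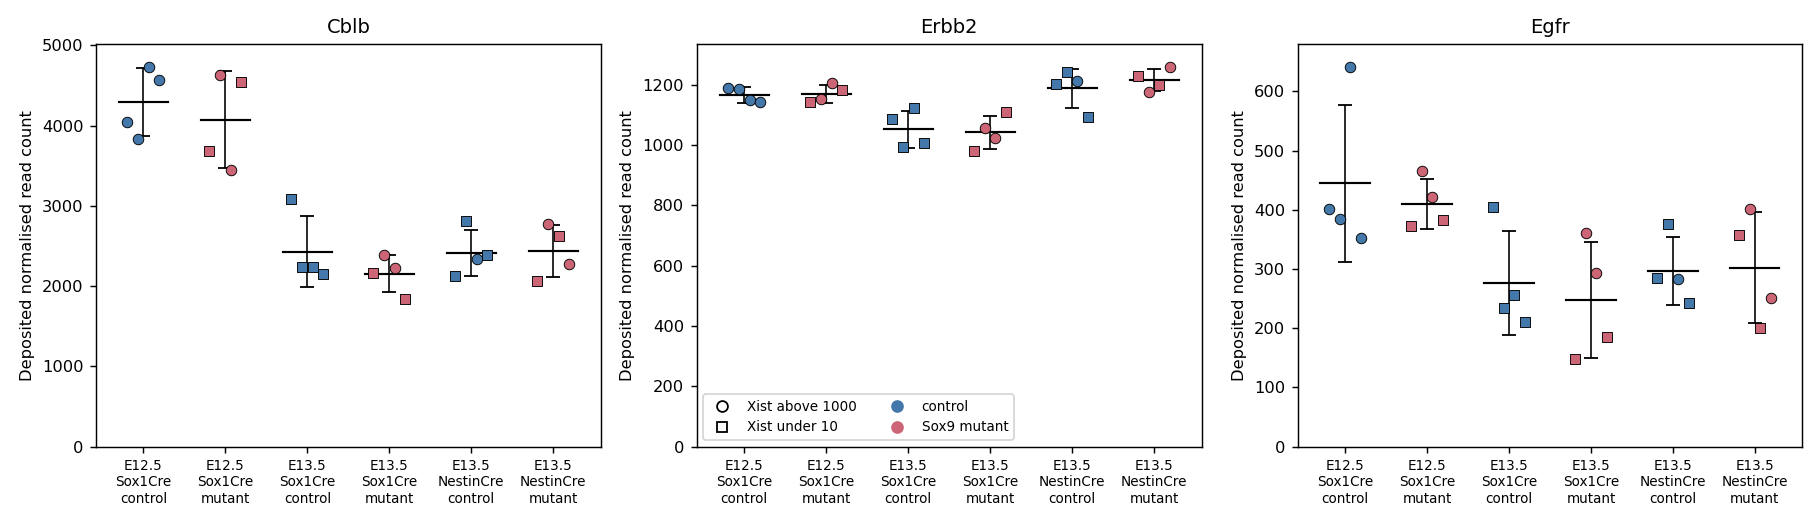
Deposited normalised read counts of Cblb, Erbb2 and Egfr in each library, by group; horizontal lines are group means, whiskers 1 SD (n = 4), and shapes the Xist class. Cblb is higher in all 8 E12.5 libraries than in all 16 E13.5 libraries, whereas Erbb2 and Egfr overlap between the ages.

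The remaining receptor genes belong to other families. Met, which encodes the hepatocyte growth factor receptor, was the least abundant of the 10, between 52.3 and 135 in the 24 libraries, with log2 changes of -0.11 (95% interval -0.60 to 0.39) at E12.5 and 0.13 (-0.37 to 0.62) in the NestinCre line. Pdgfra stood at 1903, 2159, 2424 and 1832 in E12.5 mutants against 1993, 1784, 2805 and 1781 in controls, and its log2 changes were 0.01 (-0.46 to 0.48) and -0.10 (-0.57 to 0.37). Igf1r, the insulin-like growth factor receptor gene, ranged from 6193 to 7611 over all libraries, with changes of -0.02 (-0.13 to 0.09) and 0.10 (-0.01 to 0.21); in the NestinCre line 3 of its 4 mutants were above all controls (exact permutation p = 0.0571).

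Library A1, an E13.5 Sox1Cre mutant, stood apart for several of these receptors. It was the lowest of the 24 for Egfr (149), Erbb4 (246) and Pdgfra (884), and the lowest of its 4-library group for Gab1 (2463, next 2513), but the highest of that group for Cbl (3863). A1 was also the lowest for the summed markers of meninges and fibroblasts (17813 against 25086 to 54943 in the others, led by Col3a1), of endothelium (4265 against 5069 to 11039, led by Kdr), of microglia (858 against 1109 to 1892, led by Csf1r) and of choroid plexus (7239 against 14584 to 86990, led by Ttr). No marker of these lists was at 0 in every library, and their part in the A1 receptor values was not tested. Among the pathway lists read below, A1 was the lowest for summed ligands (8757 against 14352 to 22755 in the others). It was also the lowest for other receptors (8241 against 10063 to 14242). For the RAS-ERK and PI3K-AKT core it was the highest (75331 against 65226 to 73558.5). A1 is in neither tested comparison and bears on them through the shared spread alone.

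**Figure D4:**
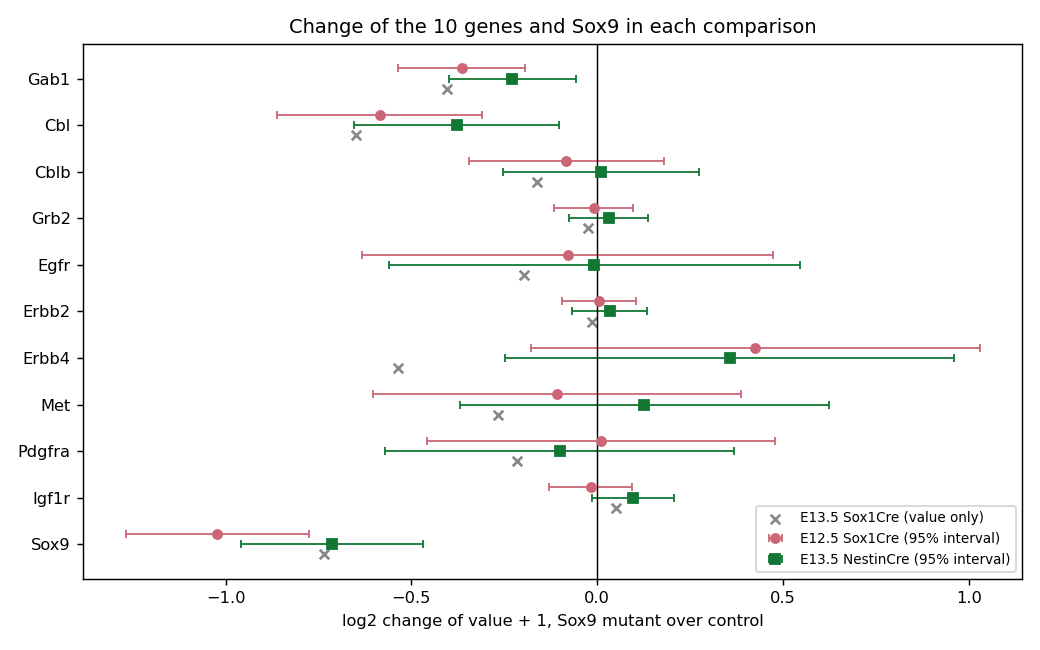
Log2 change of deposited value + 1, mutant over control, for the 10 genes and Sox9; points with bars are the E12.5 Sox1Cre and E13.5 NestinCre comparisons with 95% intervals, and crosses are the E13.5 Sox1Cre values, shown without an interval because Gab1 and Cbl were chosen from them. Gab1 and Cbl are the only 2 of the 10 whose intervals exclude 0 in both tested comparisons.

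Levels can be set between genes only per length. Per kb of annotated exon, mean normalised counts over the 24 libraries were 864 for Grb2, 564 for Gab1, 406 for Igf1r, 336 for Cbl, 283 for Cblb, 219 for Erbb2, 202 for Pdgfra, 58.8 for Erbb4, 29.1 for Egfr and 12.1 for Met. Only Grb2 and Gab1 were neighbours in this order without overlap, since the lowest Grb2 library (795 per kb) was above the highest Gab1 library (727). All other neighbours overlapped in their range over the libraries. With the longest transcript as the length, Igf1r moved above Gab1, Cblb above Cbl and Pdgfra (296) above Erbb2 (227), so these orders depend on the transcript model. They also differ between groups. Per kb of exon, the mean of Cblb was above that of Cbl in E12.5 mutants (389 against 318) and NestinCre mutants (232 against 220). Erbb2 (233) was above both in NestinCre mutants. Cbl was above Igf1r in the Sox1Cre controls of E12.5 (462 against 426) and of E13.5 (444 against 392). Pdgfra was above Erbb2 in E13.5 Sox1Cre controls (208 against 202). Erbb4, Egfr and Met were the lowest 3 on either length.

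**Figure D5:**
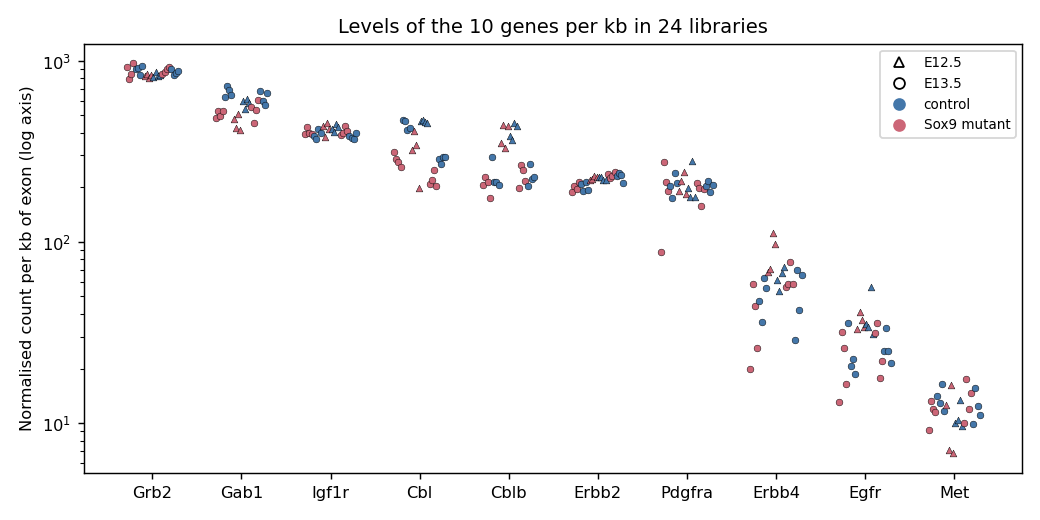
Normalised count per kb of exon for the 10 genes in 24 libraries, on a log axis, ordered by the mean; triangles are E12.5 and circles E13.5, blue controls and red mutants. Means run from 864 for Grb2 to 12.1 for Met, and Erbb4, Egfr and Met lie below the other 7 genes by their means.

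The rest of the pathway was read from lists. Of 104 genes in 6 lists, 93 were tested: ligands (11 of 17 tested), other receptors (6 of 6), adaptors and scaffolds (24 of 24), receptor ubiquitination and trafficking (20 of 22), the RAS-ERK and PI3K-AKT core (23 of 23) and growth factor response genes (9 of 12). At E12.5 and in the NestinCre line 0 of the 93 passed by limma, where 0.723% and 0.0669% of all genes did, so that a share near the background gives few calls or none in a list of this size. At an unadjusted p under 0.05 there were 12 and 7 of the 93, beside 2217 and 1064 of the 16454, and the median log2 change was -0.02 and 0.01, against 0.00 over all genes in both. In E13.5 Sox1Cre mutants, where 0.924% of all genes passed, 0 of the 93 did, with 8 at an unadjusted p under 0.05, beside 1932 of the 16454. Library A1, which stood apart for some of these lists, is among those mutants.

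In the mean of both comparisons 1 of the 93 passed, a share near the 1% of all genes that did. It was Ier2, an immediate early gene (log2 change -0.22, SE 0.0517, adjusted p = 0.0401). It stood at 851, 818, 841 and 720 in E12.5 mutants against 979, 1040, 871 and 947 in controls, and at 929, 751, 891 and 933 in NestinCre mutants against 960, 1062, 961 and 1008. Every mutant library was below every control library of its line and age. The 9 tested response genes ran from -0.42 for Fos to 0.14 for Ier3 in that mean, with 2 of them at an unadjusted p under 0.05. Their median was -0.15 there and -0.04 in E13.5 Sox1Cre mutants, against 0.00 over all genes in both, and was not tested.

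Between the ages, 11 of the 93 were higher and 6 lower at E13.5 in Sox1Cre controls, beside 1041 higher and 851 lower of the 16454 genes tested (11.5% in all), in the comparison where age and sex cannot be told apart. Among adaptors, Ptpn11, which encodes SHP2, the phosphatase bound by GAB1, rose (log2 change 0.23, adjusted p = 0.0031), as did Shc2 (0.90, adjusted p = 0.0139), and Grap2 (-2.22), Nck1 (-0.32) and Grb10 (-0.25) fell (adjusted p = 0.0164, 0.0169 and 0.0297). Among trafficking genes, Eps15, an endocytic adaptor gene, rose (0.58, adjusted p = 0.00419), as did Nedd4l (0.54), and Nedd4 fell (-0.21, adjusted p = 0.0386). The PI3 kinase subunit gene Pik3r2 rose (0.42, adjusted p = 0.00754), as did Akt1 (0.14) and Pik3cb (0.28). The ligand gene Nrg1 rose (1.36, adjusted p = 0.0152), as did Jun (0.67, adjusted p = 0.0142). Of the 64 marker genes, 10 were higher and 7 lower in the same comparison, against the same 11.5%, with 5 of the 6 neuronal markers higher, and their part in the pathway values was not tested. With Xist as a covariate, 0 genes passed.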

How the data were processed

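RNA-seq of 24 libraries (6 groups of 4) was analysed from 1 deposited table. The authors trimmed reads with Trimmomatic 0.36, aligned them to GRCm38 with STAR 2.5.2a, estimated gene counts with RSEM 1.2.31 and divided them by DESeq2 size factors. The deposited signal per gene is that normalised count, not logged or pooled. Whole reads were recovered from the steps between values (100% of values whole within 0.01 reads in each library, a check with less room in A3, where 1 read is worth close to 1); on them edgeR called 106 genes at E12.5, 5 in the NestinCre line and 164 in the mean of both.

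Gene places came from GENCODE M21 (51719 of 51912 genes named). A gene entered the tests (16454 did) if 4 or more libraries reached a value of 10. Log2 values, with a pseudocount of 1, were modelled by limma 3.58.1 (R 4.3.3) as 6 group means over all 24 libraries, with a mean-variance trend and 18 residual degrees of freedom; fold changes are on that scale, which understates changes of low genes. Adjusted p-values are two-sided, by Benjamini-Hochberg over all genes tested, and the threshold was 0.05. Single genes also had an exact permutation test of 8 libraries. edgeR 4.0.16 and DESeq2 1.42.0 on the recovered reads, other pseudocounts (0.5 and 5), filters, scalings, weights and an Xist covariate were alternatives. Pairs of libraries of 1 group differed by more than counting error (chi-square per degree of freedom 8.74 to 84.3). The steps were tested on simulated data.

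The genes and lists were chosen with earlier results of these data known. Named genes were the 10 genes, Sox9, list genes past the threshold (at most 5 per list and comparison, by p), the most abundant marker of a list and, for Gab1 and Cbl, the 5 most correlated genes, before and after centring on group means; the neighbours of Cbl and Gab1 were added after their values were seen. Some genes that this rule names are not reported here.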

Additional observations from a re-analysis of the deposited data

Results flagged for a closer look

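Dixon's test was run on each of the 10 genes in each of the 6 groups of 4 libraries, 60 groups in all, of which chance alone flags about 1 in 20. It marked 3 libraries as far from the others of their group. Cblb was 3085 in library A5, an E13.5 Sox1Cre control, against 2146 to 2244 in the other 3. Without A5 the change of Cblb with age was -0.95. Erbb4 was 958 in library A19, a NestinCre mutant, against 696 to 723 in the other 3; without A19 its change was 0.25, within a range of 0.1081 to 0.5293 over the fits without 1 library. Igf1r was 7226 in library A2, an E13.5 Sox1Cre mutant, against 6631 to 6729 in the other 3. No gene of the 10 passed the test of a difference between the E12.5 Sox1Cre and NestinCre changes.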

How the results depend on the processing

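Gab1 and Cbl kept their direction in every alternative and every fit without 1 library, and in the mean of the E12.5 Sox1Cre and NestinCre changes both stayed past the threshold in all of them. At E12.5 the call was lost with no filter on low values (Gab1 -0.365, Cbl -0.5857), with only the libraries of the comparison (-0.365 and -0.5857), with the Xist covariate (-0.384 and -0.525) and with quantile normalization (-0.3312 and -0.5451), and for Cbl also by edgeR (-0.5345). Without 1 library the E12.5 change ran from -0.4195 to -0.3232 for Gab1, losing the call without A9, A10, A12, A13, A15 or A16, and from -0.7247 to -0.3765 for Cbl, losing it without A9, A13, A14, A15 or A16. The age change of Cblb was -0.7428 with the Xist covariate, the only alternative to lose its call. Why these calls were lost was not tested. Leaving out library A1 was an alternative chosen after seeing the data, and it kept both E12.5 calls.

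Counts of genes called depended on the setting. At E12.5 they were 119, and 76 with only the libraries of the comparison, 577 with weights, 298 by DESeq2 and 50 to 139 without 1 library. In the NestinCre line they were 11, and 5 with no filter, 5 with a mean of at least 100, 2 with Xist, 17 with weights, 5 by edgeR, 37 by DESeq2 and 2 to 7 without 1 library. In the mean of both they were 165, and 581 with weights, 304 by DESeq2 and 82 to 143 without 1 library. In E13.5 Sox1Cre they were 152, and 44 with only those libraries, 962 with weights, 358 by DESeq2 and 90 to 510 without 1 library. For age they were 1892, and 0 with Xist, 3244 with weights and 794 to 2629 without 1 library. For the difference between changes they were 3, and 9 with only those libraries, 6 with weights, 32 by DESeq2 and 2 to 7 without 1 library.

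Changes that turned sign lay between -0.11 and 0.13 as reported, and none was past the threshold. At E12.5 these were Grb2 (quantile 0.02767), Egfr (Xist 0.08323), Erbb2 (weights -0.002611), Met (Xist 0.03417, weights 0.009875), Pdgfra (weights -0.02243, edgeR -0.005124, DESeq2 -0.00586) and Igf1r (quantile 0.01783). In the NestinCre line they were Cblb (Xist -0.01556) and Egfr (quantile 0.01472, edgeR 0.01619, DESeq2 0.02576), in the mean Met (quantile -0.03553), and with age Pdgfra (edgeR -0.004203, DESeq2 -0.007151). Without 1 library the E12.5 change ran from -0.02197 to 0.006013 for Grb2, -0.1784 to 0.1103 for Egfr, -0.009792 to 0.01656 for Erbb2, -0.3417 to 0.07305 for Met, -0.06693 to 0.1597 for Pdgfra and -0.05401 to 0.03373 for Igf1r. In the NestinCre line it ran from -0.05546 to 0.08666 for Cblb, -0.1624 to 0.173 for Egfr, -0.005516 to 0.05586 for Erbb2 and -0.008339 to 0.262 for Met. In the mean it ran from -0.06907 to 0.002235 for Cblb, -0.121 to 0.0513 for Egfr, -0.0003282 to 0.03036 for Erbb2, -0.1073 to 0.1 for Met and -0.08389 to 0.02943 for Pdgfra, and with age from -0.06243 to 0.1598 for Pdgfra. Met has a mean under 100 and was not tested under that filter. No paired analysis was possible because the groups share no replicate numbers.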

Other observations

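Rnf26, near Cbl on chromosome 9, stood at 1695 to 1957 in E13.5 Sox1Cre mutants and 2310 to 2693 in their controls, the libraries by which Cbl was chosen. Among NestinCre libraries Rnf26 stood at 1464 to 1687 in mutants and 1682 to 2131 in controls, which overlap. C030014I23Rik, 234 kb from the Cbl start, stood at 2.09 to 7.89 in NestinCre mutants and 11.1 to 17.1 in NestinCre controls, while the groups overlapped at E12.5 (10.2 to 24.3 in mutants and 23.3 to 36.3 in controls) and in E13.5 Sox1Cre libraries (7.3 to 17.6 and 14.2 to 30.9). It had a log2 change of -1.03 in the mean of the E12.5 Sox1Cre and NestinCre comparisons (SE 0.24, adjusted p = 0.0385, limma). Library A18, a NestinCre mutant, held Dlx2 at 220, Gad2 at 100.5 and Olig2 at 142.5, where the other 3 mutants of its group had at most 8.38, 14.7 and 10.1 and the 4 NestinCre controls at most 6.7, 4.42 and 15.9. For Gad2 the other 3 mutants, from 5.92, were also above every NestinCre control.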
